A study of Homo sapiens with 6 samples.

Results

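The glypicans GPC1 to GPC6 and the syndecans SDC1 to SDC4 are the 10 human genes for the 2 main families of cell-surface heparan sulfate proteoglycans, and they were taken by symbol from the 23228 genes of the deposited tables. All 10 were found, and all 10 were among the 14537 genes that passed the filter on low counts. RNA was sequenced from Hep3B, an established human hepatocellular carcinoma (HCC) cell line grown in RPMI medium. The 3 control libraries came from cells with a non-targeting shRNA, and the 3 libraries labelled PELP1-KD came from cells given shRNA against PELP1, a scaffold protein of the Rix1 complex and of nuclear receptor signaling. Cells were transduced with the shRNA and selected with puromycin. The sample titles name the first PELP1 shRNA, while the protocol names both, so which was used is uncertain, and nothing states that the libraries came from separate cultures, so p-values measure only the spread between these libraries.

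A heparan sulfate proteoglycan is a core protein with long sulfated sugar chains that hold growth factors such as FGFs, HGF and WNTs at the cell surface. Glypicans are tied to the membrane by a GPI lipid anchor and can be released by cleavage, whereas syndecans cross the membrane and bind cytoskeletal and signaling proteins with a short cytoplasmic tail. GPC3 is an oncofetal protein, abundant in fetal liver, nearly silent in adult hepatocytes and expressed again in most HCC, in which it serves as a tissue marker. Syndecan-1 is the main syndecan of hepatocytes and takes part in the clearance of lipoprotein remnants.

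Sequencing depth ran from 26758363 to 34456542 reads counted on genes per library. The labelled cell type was borne out by its markers, since ALB, AFP, APOA1, APOB, TTR, SERPINA1, FGB and TF had between 1625 and 380318 reads in every library. All 8 were called, with AFP and FGB higher in PELP1-KD and the other 6 lower, among them ALB and TTR (both −0.61 on the log2 scale), SERPINA1 and APOB (both −0.46), and the part of this in the results below was not tested. Calls were common in these libraries, at 53.6% of all tested genes, 26.8% lower and 26.8% higher. Of 12 markers of leukocytes, endothelium, fibroblasts and bile duct cells, 7 were too rare to be tested, among them PTPRC, CDH5, VWF and DCN with at most 5 reads in a library. KRT19, LUM, CD68 and COL1A2 were called higher in PELP1-KD, at 0.48 to 0.92 on the log2 scale, while PECAM1 was not called, at −0.09 (adjusted p = 0.656 by edgeR). The 12 markers summed to between 15323 and 15946 normalized reads in control and between 26669 and 29240 in PELP1-KD, most of it KRT19, and their part in the results below was not tested. PELP1 RNA in the libraries labelled PELP1-KD was 94.5% of control, with a log2 fold change, or log2FC (PELP1-KD minus control), of −0.08 by edgeR (SE 0.04, adjusted p = 0.101). PELP1 was called lower with the replicate number as a block (adjusted p = 0.0106) and without replicate 3 of PELP1-KD (adjusted p = 0.018). Since its level was near that of control, each direction given here is that of the labels. The paper reports reduced PELP1 protein in its PELP1-KD Hep3B cells by Western blot. Whether those were the cells of these libraries is not stated. Replicate 3 of PELP1-KD differed most from another library of its group, at a ratio of chi-square to degrees of freedom of 7.02 when set against replicate 1 (1.94 to 4.12 for the other pairs), and without it all 10 genes were still called.

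To compare levels between genes, reads were divided by exon length and by the scaled library size, which gives RPKM. GPC3 was the most abundant of the 10 genes, with RPKM of 473, 477 and 476 in the controls and 404, 397 and 406 in PELP1-KD. Its control level lay above that of 99.1% of the tested genes or equal to it. SDC4, which gathers in focal adhesions, came next with RPKM of 186, 191 and 185 in control and 344, 349 and 328 in PELP1-KD. SDC2 had a mean RPKM of 64.8 ± 2.02 (SD, n = 3) in control and SDC1 one of 51.3 ± 0.509 (SD, n = 3). GPC6 and SDC3 followed with 15.3 ± 0.678 and 8.24 ± 0.230 RPKM (SD, n = 3 each). The other 4 were rare, with control means of 2.11 RPKM for GPC1, 1.69 for GPC2, 1.26 for GPC5 and 0.745 for GPC4.

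In control, only GPC1 and GPC2 overlapped with their neighbour in the order of RPKM, since the lowest GPC1 value was 1.85 and the highest GPC2 value was 1.86. The first 6 genes kept their order in the libraries labelled PELP1-KD, with no overlap between neighbours. Below them the order was GPC2, GPC1, GPC4 and GPC5, so that GPC2 and GPC1 traded places and so did GPC5 and GPC4. The ratio of GPC2 to GPC1 RPKM was 0.749, 0.851 and 0.809 in control and 2.06, 2.88 and 2.43 in PELP1-KD.

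**Figure D1:**
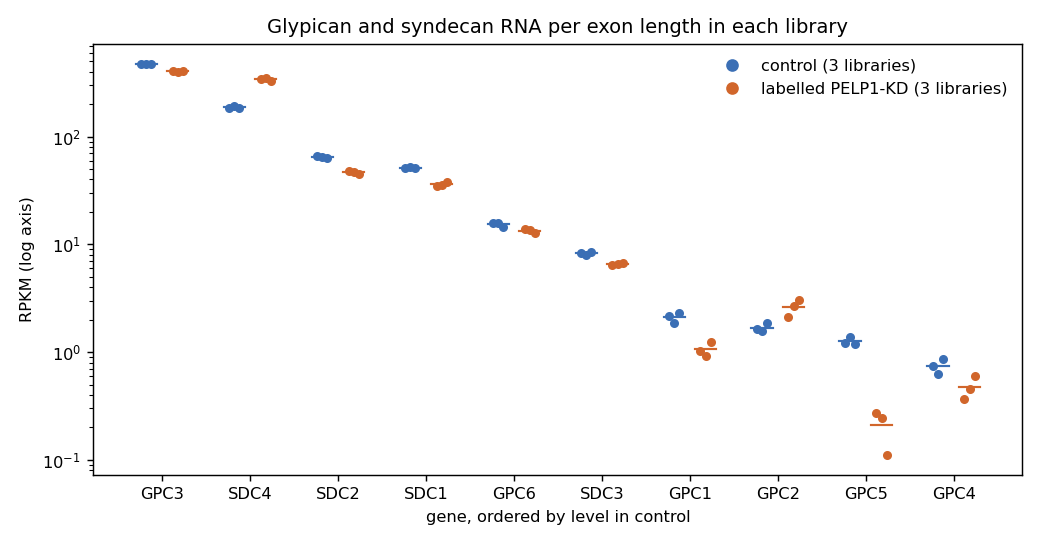
RPKM of the 10 genes on a log axis, with 1 point per library and a line at the mean of each group of 3. GPC3 and SDC4 stand above the other 8 genes in both groups, and SDC4 comes closer to GPC3 in the libraries labelled PELP1-KD.

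edgeR's quasi-likelihood test was run over all 14537 genes, and a gene was called at an adjusted p below 0.05. All 10 genes were called, 8 lower and 2 higher in the libraries labelled PELP1-KD. Of all tested genes 53.6% were called, 26.8% lower and 26.8% higher, so a call by itself is common in these libraries and the sizes of the changes tell more. The median log2FC was −0.40 over the 10 genes and 0.00442 over all tested genes. In none of the 10 did the normalized reads of the groups overlap, as was the case for 58.8% of all tested genes. A change of at least 2-fold was reached by GPC5 alone, where 7.65% of all tested genes reached it, 4.79% by falling and 2.85% by rising. The count of 2-fold falls was 2 without replicate 2 of control or without replicate 3 of PELP1-KD, since GPC1 lay at 50.7% of control.

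**Figure D2:**
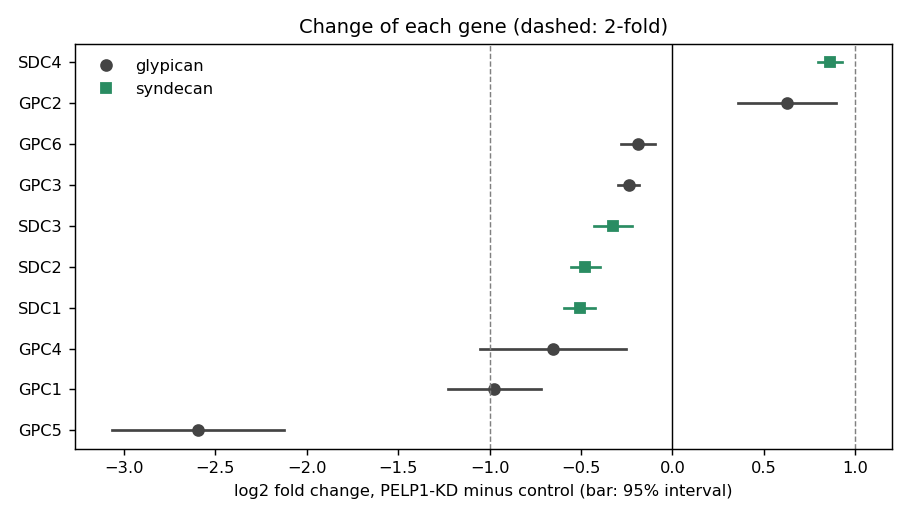
Log2 fold change of each gene, PELP1-KD minus control, with its 95% interval from edgeR, circles for glypicans and squares for syndecans. SDC4 and GPC2 lie to the right of 0, the other 8 genes to the left, and GPC5 lies beyond the dashed line of a 2-fold fall.

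Both syndecans and glypicans held a gene that rose. Their starts are shown here by the 250 bases before the RefSeq start site on GRCh38.p14, a different build from the hg19 of the read counts, for both genes that rose and for the members of each family that fell with the smallest p. For SDC1 the outer of its 2 listed starts is shown. Capitals mark matches on either strand to the GC box GGGCGG, to the CCAAT motif, or to the TATA box, whose letters were TATAAA, and no marked match overlaps another.
SDC4 (chr20:45348425-45348674, minus strand): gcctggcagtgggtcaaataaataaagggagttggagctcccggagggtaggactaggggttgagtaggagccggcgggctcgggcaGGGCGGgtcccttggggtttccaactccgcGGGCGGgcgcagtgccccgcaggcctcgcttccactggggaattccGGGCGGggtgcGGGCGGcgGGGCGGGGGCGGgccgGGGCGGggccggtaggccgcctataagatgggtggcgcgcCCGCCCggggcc
GPC2 (chr7:100177382-100177631, minus strand): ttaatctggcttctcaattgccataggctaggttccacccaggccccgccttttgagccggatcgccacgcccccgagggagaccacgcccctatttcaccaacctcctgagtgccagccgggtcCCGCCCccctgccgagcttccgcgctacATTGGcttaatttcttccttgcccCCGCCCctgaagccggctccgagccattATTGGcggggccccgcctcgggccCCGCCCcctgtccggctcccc
SDC1 (chr2:20225476-20225725, minus strand): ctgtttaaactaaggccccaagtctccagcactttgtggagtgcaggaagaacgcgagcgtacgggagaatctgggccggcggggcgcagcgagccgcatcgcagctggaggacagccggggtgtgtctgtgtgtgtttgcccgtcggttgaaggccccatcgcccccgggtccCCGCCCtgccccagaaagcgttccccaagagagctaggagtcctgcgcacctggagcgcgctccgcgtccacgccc
GPC5 (chr13:91398371-91398620, plus strand): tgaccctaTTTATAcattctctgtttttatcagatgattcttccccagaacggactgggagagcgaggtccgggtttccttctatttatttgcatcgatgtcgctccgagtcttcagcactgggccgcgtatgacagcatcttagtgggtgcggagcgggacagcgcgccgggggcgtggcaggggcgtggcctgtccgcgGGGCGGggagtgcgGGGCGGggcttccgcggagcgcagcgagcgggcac
The SDC4 stretch holds 8 GC boxes, a number reached by 0.584% of the 35116 RefSeq promoters of this length, while 42.6% hold at least 1. The GPC2 stretch has 3 GC boxes and 2 CCAAT boxes, a motif that 32.0% of the promoters hold. The SDC1 stretch has 1 GC box, and that of GPC5 has 2 GC boxes and a TATA box, which 10.7% hold. The stretches shown are also rich in G and C, with 73.6% for SDC4, 66.8% for GPC2, 66.4% for SDC1 and 62.4% for GPC5. The median over all promoters was 58.0%. Of the genes that fell and are not shown, SDC3 held 5 GC boxes, GPC1 4 and GPC4 2, while GPC6 held 0 and had 37.6% G and C. Whether the motifs bear on the direction of change was not tested. Among the 8 genes matched in the promoter table, which leaves out GPC3 and SDC2, none held the E-box CACGTG in these windows, which 6.34% of all promoters hold. None held the AP-1 site TGANTCA either, which 6.57% hold. A match is a description of letters and not a bound site.

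Among the syndecans, SDC4 moved against the other 3. SDC4 is found on the minus strand of chromosome 20 (hg19, as for every gene position here), from 43953929 to 43977064, with 5 exons. It had 15252, 15644 and 15215 normalized reads in the controls and 28220, 28674 and 26897 in PELP1-KD. The lowest PELP1-KD value was thus far above the highest control value. SDC4 rose 1.82-fold, with a log2FC of 0.86 (SE 0.03, 95% interval 0.80 to 0.93, adjusted p = 1.68e-14). In bulk RNA, here and for every gene, a change in the number of cells that express a gene and a change in RNA per cell cannot be told apart.

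SDC1, also known as CD138 and found on epithelia and plasma cells, lies on chromosome 2 from 20400558 to 20425194 on the minus strand. It had 5380, 5483 and 5459 normalized reads in control and 3661, 3804 and 4013 in PELP1-KD. The control values were close together and all above those of PELP1-KD, among which replicate 3 was the highest. SDC1 fell to 70.3% of control, a log2FC of −0.51 (SE 0.04, adjusted p = 1.89e-09).

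SDC2, the syndecan of mesenchymal cells and liver, lies on chromosome 8 from 97505882 to 97624037 on the plus strand. It had 7316, 7098 and 6874 normalized reads in control and 5235, 5126 and 4929 in PELP1-KD. In both groups replicate 3 was the lowest, and the groups did not overlap. SDC2 fell to 71.8% of control, a log2FC of −0.48 (SE 0.04, adjusted p = 2.18e-09), close to that of SDC1. SDC2 and SDC4 form 1 branch of the syndecan family and SDC1 and SDC3 the other, so the opposite directions ran within a branch.

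SDC3, best known from neurons, lies on chromosome 1 from 31342313 to 31381480. It had 1336, 1285 and 1357 normalized reads in control and 1042, 1050 and 1085 in PELP1-KD, again without overlap. Its fall to 79.9% of control was the smallest among the syndecans, with a log2FC of −0.32 (SE 0.05, adjusted p = 1.55e-05).

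The make-up of syndecan RNA shifted with these changes. SDC4 made up 59.6%, 60.5% and 60.2% of the summed syndecan RPKM in the controls and 79.5%, 79.7% and 78.5% in PELP1-KD. The share of SDC2 went from 20.8% ± 0.564 to 10.8% ± 0.193 and that of SDC1 from 16.5% ± 0.222 to 8.41% ± 0.580 (SD, n = 3 each). The ratio of SDC4 to SDC1 RPKM was between 3.6 and 3.68 in control and between 8.65 and 9.95 in PELP1-KD, while the ratio of SDC2 to SDC1 overlapped, with 1.32, 1.25 and 1.22 against 1.38, 1.3 and 1.19. Summed over the 4 genes, syndecan RNA was 312 ± 3.52 RPKM in control and 429 ± 11 in PELP1-KD (SD, n = 3 each), 1.38-fold higher even though 3 of the 4 genes fell.

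**Figure D3:**
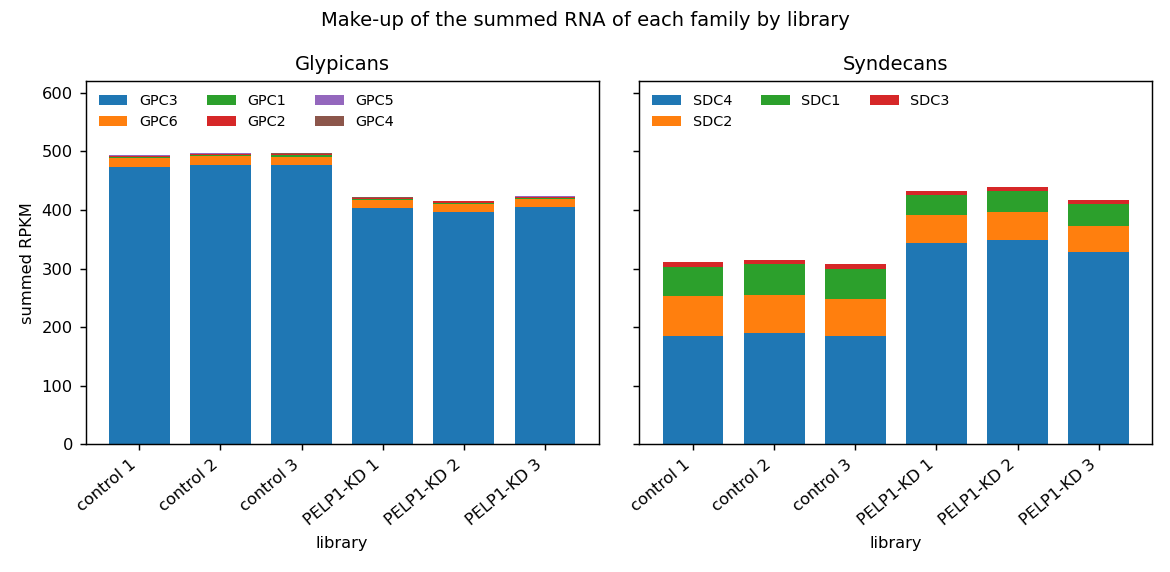
Summed RPKM of the glypicans and of the syndecans in each of the 6 libraries, stacked by gene. GPC3 fills nearly the whole glypican bar in every library, and the SDC4 part of the syndecan bar is taller in the 3 libraries labelled PELP1-KD while the parts of SDC2 and SDC1 are shorter.

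Among the glypicans, GPC3 set the family's level. It lies on chromosome X from 132669776 to 133119673 on the minus strand, spans 449898 bases and has 9 exons of 2385 bases in all, none shared with another gene of the annotation. GPC3 had 35462, 35734 and 35704 normalized reads in the controls and 30278, 29787 and 30435 in PELP1-KD. Its values were the closest within a group of all 10 genes, with a coefficient of variation of 0.420% in control and 1.12% in PELP1-KD. GPC3 fell to 84.7% of control, a log2FC of −0.24 (SE 0.03, 95% interval −0.30 to −0.18, adjusted p = 4.41e-07). A change of this size or smaller was seen for 57.5% of all tested genes, so the fall of GPC3 was clear against its replicates and ordinary in size.

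GPC3 made up 95.7% ± 0.0862 of the summed glypican RPKM in control and 95.8% ± 0.0783 in PELP1-KD (SD, n = 3 each). Glypican RNA as a whole was 496 ± 1.69 RPKM in control and 420 ± 4.38 in PELP1-KD (SD, n = 3 each). Without GPC3, the other 5 glypicans summed to 21.1 ± 0.369 and 17.8 ± 0.155 RPKM (SD, n = 3 each). The ratio of GPC3 to SDC4 RPKM was 2.55, 2.50 and 2.57 in control and 1.18, 1.14 and 1.24 in PELP1-KD. Glypicans thus held 61.4% ± 0.264 of the RPKM of both families in control and 49.5% ± 0.877 in PELP1-KD (SD, n = 3 each).

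GPC5, the closest relative of GPC3 in sequence, showed the largest change of the 10. It lies on chromosome 13 from 92050935 to 93519487 on the plus strand and spans 1468553 bases. GPC5 had 119, 129 and 114 reads in the controls and 24, 19 and 10 in PELP1-KD. The 3 control values were alike, while in PELP1-KD replicate 3 had the fewest reads although its library was the deepest of that group. GPC5 fell 6.02-fold to 16.6% of control, a log2FC of −2.60 (SE 0.22, 95% interval −3.06 to −2.13, adjusted p = 7.91e-09). It was rare in both groups, so this removed little of the total glypican RNA, with a share of 0.253% in control and 0.0498% in PELP1-KD.

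GPC6, the most abundant glypican after GPC3 and the gene of omodysplasia, a skeletal disorder, lies next to GPC5 on chromosome 13 from 93879078 to 95060273 on the same strand. It had 3516, 3497 and 3245 normalized reads in control and 3099, 3051 and 2847 in PELP1-KD. Replicate 3 was the lowest in both groups, and the highest PELP1-KD value lay below the lowest control value by less than the range of either group. GPC6 fell to 87.7% of control, a log2FC of −0.19 (SE 0.04, adjusted p = 0.00138), the smallest change of the 10. The ratio of GPC6 to GPC5 RPKM was between 11.5 and 13.1 in control and 51.1, 55.8 and 116 in PELP1-KD.

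GPC1, which is raised in several carcinomas, lies on chromosome 2 from 241375115 to 241407495. It had 274, 224 and 279 reads in control and 116, 92 and 145 in PELP1-KD, so that every PELP1-KD library held fewer than any control library. GPC1 fell to 50.7% of control, a log2FC of −0.97 (SE 0.12, 95% interval −1.23 to −0.72, adjusted p = 1.23e-06), and its interval spans a 2-fold change. GPC4, the neighbour of GPC3, lies on chromosome X from 132435064 to 132549205. It had 95, 76 and 106 reads in control and 42, 45 and 70 in PELP1-KD, where the highest value was close to the lowest control value. GPC4 fell to 63.4% of control, a log2FC of −0.65 (SE 0.19, adjusted p = 0.00685), and it stayed called without each library in turn, with an adjusted p of up to 0.0454.

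GPC2, a glypican of the developing nervous system, was the only glypican that rose. It lies on chromosome 7 from 99767229 to 99774990 on the minus strand. GPC2 had 141, 131 and 155 reads in control and 164, 182 and 242 in PELP1-KD, and after normalization the groups did not overlap, with 126 to 148 normalized reads against 168 to 242. The spread in PELP1-KD was wide, with a coefficient of variation of 17.9%. GPC2 rose 1.54-fold, a log2FC of 0.63 (SE 0.13, 95% interval 0.36 to 0.90, adjusted p = 0.000377).

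GPC3 and GPC4 lie 120571 bases apart on chromosome X, and GPC5 and GPC6 lie 359591 bases apart on chromosome 13, so the genes within 2 Mb of each pair were read from the same fit. The share to set these counts against is 53.6% called over all tested genes, 26.8% lower and 26.8% higher. Around GPC3 and GPC4, between 130435064 and 135119673, 20 other genes were tested, of which 5 were called higher and 4 lower, with a median log2FC of 0.04. The clearest was HS6ST2, a heparan sulfate 6-O-sulfotransferase, 339641 bases beyond GPC4. It had 1937, 1864 and 1830 reads in control and 957, 791 and 844 in PELP1-KD and fell to 51.7% of control, a log2FC of −0.95 (SE 0.05, adjusted p = 1.48e-11). MBNL3, a splicing regulator on the far side of HS6ST2, fell by 0.40 on the log2 scale (adjusted p = 4.06e-06) and FAM127C, on the other side of GPC3, by 0.55 (adjusted p = 9.9e-06), although its reads may be shared with its near-identical neighbours FAM127A and FAM127B. PHF6, the tested gene next to the start of GPC3, rose by 0.21 on the log2 scale (adjusted p = 0.00702). GPC3, GPC4, HS6ST2 and MBNL3, which follow each other among the tested genes, were all lower, but this run was picked after its values were seen. RAP2C, the next tested gene beyond MBNL3, was not called (log2FC −0.05, adjusted p = 0.485). Called genes of both directions lay outside the run, and whether the region changed as a whole was not tested.

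Around GPC5 and GPC6, between 90050935 and 97060273 of chromosome 13, 7 other genes were tested, of which 4 were called lower and 1 higher, with a median log2FC of −0.35. Over all tested genes 26.8% were called lower and 26.8% higher. UGGT2, a glucosyltransferase of the endoplasmic reticulum, fell by 0.41 on the log2 scale (adjusted p = 8.83e-05) and TGDS by 0.36 (adjusted p = 0.000809). MIR17HG, the host of the miR-17 cluster just before GPC5, fell by 0.50 on the log2 scale (adjusted p = 0.00668). ABCC4 rose by 0.15 (adjusted p = 0.0173) but was not called in 3 of the tests with a library left out. GPR180 and DZIP1 were not called, at 0.15 and −0.35 (adjusted p = 0.262 and 0.0815). None of these neighbours fell at least 2-fold, and GPC5 lay below all 7.

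**Figure D4:**
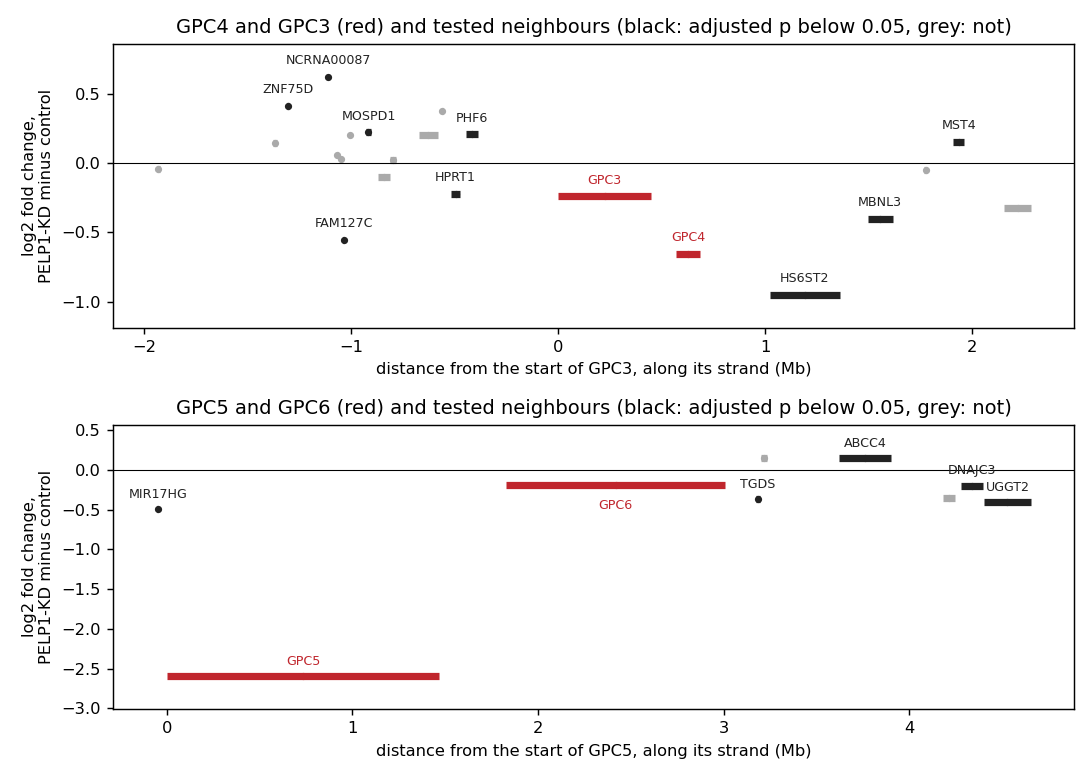
Log2 fold change of the tested genes within 2 Mb of GPC3 and GPC4 (upper panel) and of GPC5 and GPC6 (lower panel), drawn as bars over their span against the distance from the start of GPC3 or GPC5 in Mb. The proteoglycan genes are red, called neighbours are black and the others are grey. HS6ST2 at −0.95 lies below GPC3 and GPC4, and GPC5 at −2.60 lies below every other gene of its panel.

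The core proteins carry heparan sulfate chains. The 80 genes of 10 lists for the making, trimming, breakdown and anchoring of heparan sulfate proteoglycans were therefore read from the same fit. Of 68 tested genes 47 were called, 28 lower and 19 higher, which is 69.1% against the 53.6% of all tested genes. Over all tested genes 26.8% were called lower and 26.8% higher, the shares to set the counts of each list below against. The median log2FC of the 68 genes was −0.06. The chain starts on a serine with a linkage region, and of 9 genes for it 3 were called higher and 4 lower, with a median of 0.05. XYLT1, a xylosyltransferase for the first sugar, had 3, 3 and 9 reads in control and 36, 32 and 33 in PELP1-KD, a log2FC of 2.89 (SE 0.37, adjusted p = 2.07e-06). It passed the filter on low counts only through the PELP1-KD libraries, where it was high. XYLT2, the xylosyltransferase with far more reads here, rose by 0.24 on the log2 scale (adjusted p = 0.00106). FAM20B, the xylose kinase, and B3GALT6, a galactosyltransferase, fell by 0.37 and by 0.32.

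Both subunits of the chain polymerase fell. EXT1 had 3074, 3062 and 3018 reads in control and 1944, 1780 and 2125 in PELP1-KD, 71.7% of control after normalization and a log2FC of −0.48 (SE 0.04, adjusted p = 1e-08). EXT2 fell by 0.25 on the log2 scale (adjusted p = 8.11e-05). EXTL1 had at most 3 reads in a library and was not tested.

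Of 16 sulfotransferases and other chain-modifying enzymes 11 were tested, of which 6 were called lower and 1 higher, with a median log2FC of −0.24. Over all tested genes 26.8% were called in each direction. Besides HS6ST2, those lower were NDST1, which starts sulfation (−0.24), HS2ST1 (−0.30), HS6ST1 (−0.23), HS3ST3B1 (−0.40) and NDST3. NDST3 was rare, with 12, 25 and 18 reads in control and 1, 6 and 1 in PELP1-KD (log2FC −2.56, SE 0.57), and its log2FC was −3.94 without replicate 2 of PELP1-KD. It passed the filter on low counts only through the control libraries. HS3ST5 was called higher with 1, 9 and 6 reads in control and 17, 12 and 10 in PELP1-KD, a log2FC of 1.43 (SE 0.51, adjusted p = 0.0236), and DESeq2 did not call it (adjusted p = 0.0826). Nor was HS3ST5 called without replicate 1 of control (log2FC 0.93, adjusted p = 0.118) or without replicate 1 or 2 of PELP1-KD (adjusted p = 0.094 and 0.057), and without replicate 2 of control its log2FC was 2.03. HS3ST5 passed the filter on low counts only through the PELP1-KD libraries. The epimerase GLCE had a log2FC of 0.17 (adjusted p = 0.0564) and was called higher with the replicate block (adjusted p = 0.0176), without the filter on low counts (adjusted p = 0.0304) and without replicate 3 of PELP1-KD (log2FC 0.23, adjusted p = 0.00373). Without replicate 1 of PELP1-KD the log2FC of GLCE was 0.07 (adjusted p = 0.416).

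For the precursors, 3 of 7 genes were called lower and 1 higher, beside 26.8% of all tested genes in each direction. SLC35B2, which carries the sulfate donor PAPS into the Golgi, fell by 0.49 on the log2 scale (adjusted p = 3.07e-07), and UXS1, which makes UDP-xylose, by 0.43 (adjusted p = 1.11e-07). The PAPS synthases went apart, with PAPSS1 at −0.19 and PAPSS2 at 0.18 on the log2 scale, both called. Of the enzymes that edit finished chains outside the cell, the endosulfatases SULF1 and SULF2 had at most 2 and 6 reads in a library, HPSE2 had at most 4, and HPSE, heparanase, had a log2FC of 0.01 (adjusted p = 0.957). Of 7 lysosomal enzymes 3 were called lower and 3 higher. IDS, iduronate sulfatase, rose from 824, 731 and 646 reads in control to 1569, 1436 and 1566 in PELP1-KD, a log2FC of 1.22 (SE 0.06, adjusted p = 2.75e-12), while the other 6 lay between −0.24 and 0.16.

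**Figure D5:**
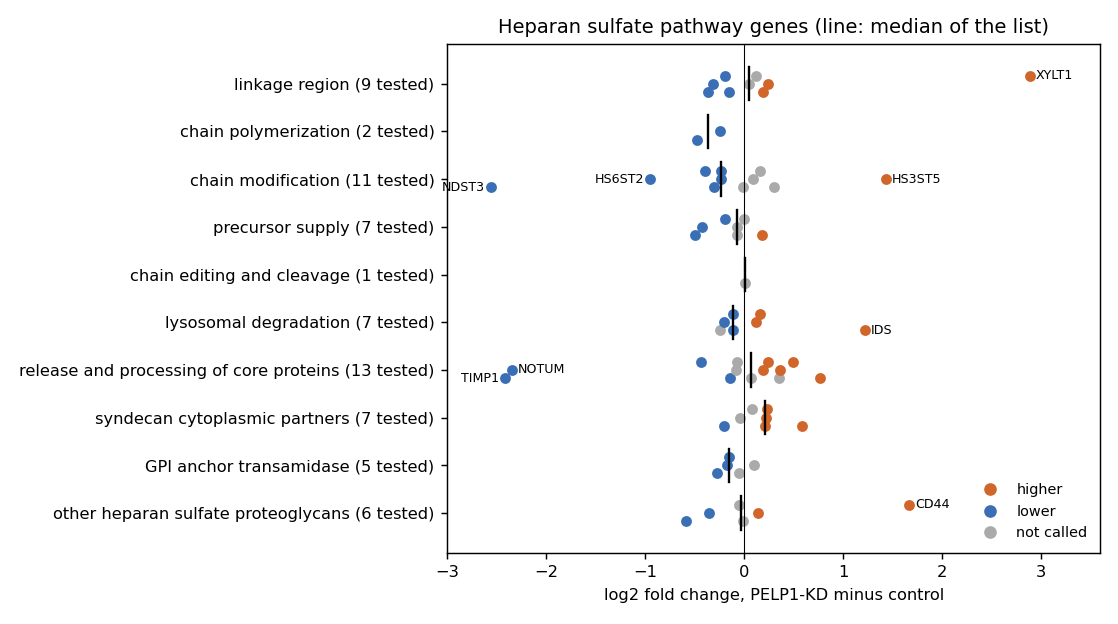
Log2 fold change, PELP1-KD minus control, of the 68 tested heparan sulfate pathway genes by list, orange for those called higher, blue for those called lower and grey for those not called, with a black line at the median of each list. XYLT1, CD44, HS3ST5 and IDS stand out to the right and NDST3, TIMP1 and NOTUM to the left.

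Of 13 tested genes for the release and processing of core proteins, 5 were called higher and 4 lower, beside 26.8% of all tested genes in each direction. NOTUM, a WNT lipase that was first described as an enzyme acting on glypicans, had 228, 211 and 240 reads in control and 29, 36 and 54 in PELP1-KD. It fell to 19.6% of control, a log2FC of −2.34 (SE 0.16, adjusted p = 2.04e-10). TIMP1, a metalloprotease inhibitor, had 72, 44 and 42 reads in control and 9, 8 and 9 in PELP1-KD, a log2FC of −2.42 (SE 0.31, adjusted p = 1.56e-06). It passed the filter on low counts only through the control libraries. TIMP3, an inhibitor of the shedding proteases, rose by 0.77 on the log2 scale (adjusted p = 4.43e-12), and MMP14, which can cleave syndecan-1, by 0.49 (adjusted p = 1.93e-08). The convertase FURIN, which cuts GPC3, rose by 0.19 (adjusted p = 7.66e-05), as did the convertases PCSK5 by 0.36 (adjusted p = 0.000504) and PCSK7 by 0.24 (adjusted p = 0.000406), while PCSK6 fell by 0.44 (adjusted p = 1.13e-08). The sheddases ADAM10 and ADAM17 had log2FC values of −0.07 and 0.07 (adjusted p = 0.127 and 0.238), and with the replicate number as a block ADAM10 was called, at −0.07 (adjusted p = 0.0166).

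Of 7 tested partners of the syndecan tail, 4 were called higher and 1 lower, beside 26.8% of all tested genes in each direction. SYNJ2BP, a PDZ protein that binds syndecans, rose by 0.58 on the log2 scale (adjusted p = 1.9e-08). SDCBP, or syntenin, the adaptor named for syndecans, rose by 0.23 (adjusted p = 0.000409), CASK by 0.22 (adjusted p = 0.000229) and ACTN4, which links the SDC4 tail to actin, by 0.21 (adjusted p = 2.41e-05). PRKCA, the kinase activated by the SDC4 tail, fell by 0.20 (adjusted p = 0.000561). Of the 5 genes of the GPI transamidase, which fixes the anchor to glypicans, GPAA1, PIGT and PIGU were called lower, at −0.28, −0.17 and −0.15, and PIGK and PIGS were not, at 0.10 and −0.05. PIGU was not called by DESeq2 (adjusted p = 0.0519) or without replicate 2 or 3 of control or replicate 2 of PELP1-KD, and PIGK was called higher with the replicate block (adjusted p = 0.0496) and without replicate 3 of PELP1-KD.

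Among other proteins that carry or can carry heparan sulfate, CD44, the hyaluronan receptor, had 596, 628 and 587 reads in control and 1817, 1472 and 1838 in PELP1-KD. It rose 3.17-fold, a log2FC of 1.67 (SE 0.06, adjusted p = 4.1e-15). NRP1, a co-receptor for VEGF, and COL18A1, a basement membrane collagen, fell by 0.58 and 0.36 on the log2 scale (adjusted p = 5.7e-10 and 1.74e-07). Agrin (AGRN) and perlecan (HSPG2) were not called, with log2FC values of −0.01 and −0.06 (adjusted p = 0.77 and 0.29). With the replicate block, the fall of HSPG2 was called (adjusted p = 0.0367), as it was without replicate 3 of PELP1-KD (adjusted p = 0.00851). SRGN had no read in any library, which allows up to 3 reads in each. In control, COL18A1 had a mean RPKM of 104, AGRN of 55.0 and HSPG2 of 17.4, all below GPC3 and SDC4.

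GPC3 belongs to the oncofetal genes of the liver. A list of 14 genes held such genes, GPC3 among them, and also regulators of them such as ZHX2 and ZBTB20. All 14 were tested, with 9 called lower and 2 higher. That is 78.6% called, against 53.6% of all tested genes (26.8% lower and 26.8% higher). AFP, alpha-fetoprotein, the serum marker of HCC, moved against GPC3. It had 157018, 149898 and 143310 reads in control and 218918, 188014 and 210933 in PELP1-KD and rose by 0.62 on the log2 scale (SE 0.03, adjusted p = 5.85e-13). The ratio of AFP to GPC3 RPKM was 4.76, 4.72 and 4.49 in control and 8.69, 8.64 and 8.12 in PELP1-KD. EPCAM, a marker of liver progenitors, rose by 0.27 (adjusted p = 1.38e-05). The fall of GPC3 was close to that of PEG10 (−0.24), LIN28B (−0.27) and IGF2BP3 (−0.16) and much smaller than that of DLK1, H19 and IGF2 (log2FC −1.43 for IGF2), the 3 genes of the list that fell at least 2-fold. DLK1 had 1626, 1607 and 1569 reads in control and 5, 1 and 4 in PELP1-KD, so it passed the filter on low counts only through the control libraries. ZHX2, known in mouse liver as a repressor of AFP, H19 and GPC3, fell by 0.32 (adjusted p = 2.75e-05). IGF2BP1, SALL4 and ZBTB20, a repressor of AFP, were not called, with log2FC values of 0.03, 0.13 and 0.35 (adjusted p = 0.354, 0.336 and 0.0716), and ZBTB20 was called higher without the filter on low counts and without replicate 3 of control or of PELP1-KD.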

How the data were processed

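RNA-seq of 3 control and 3 PELP1-KD libraries was used. The header of the deposited tables gives featureCounts 1.5.0-p1 on the UCSC hg19 annotation, reverse-stranded, with a mapping quality of at least 2, with multiply matching reads divided among their places or genes. Estimated counts per gene, not normalized, are what the authors deposited. The paper names TopHat2 and HTSeq, and the submitters' processing notes name HISAT2 and featureCounts. The labels disagree on mRNA selection or ribosomal depletion.

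Estimated counts were rounded and tested with edgeR 4.0.16 in R 4.3.3 (filterByExpr, TMM, glmQLFit with robust estimation, glmQLFTest), with Benjamini-Hochberg adjustment over 14537 genes. The median standard error of a log2 fold change was 0.0632. For normalized reads, each library was divided by its TMM-scaled size over the geometric mean of these sizes. The method was tested on simulated counts. Far fewer genes were changed there than were called in these data, so a setting like this one was not tried. No exon base of the 10 genes is shared with another gene. PXYLP1 is listed as ACPL2.

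The genes and lists were chosen with earlier results of these data known. All 10 proteoglycan genes were named, then from each list those changed at least 2-fold, any gene of a list of 5 or fewer, of the neighbours the 5 with the smallest p, and the 5 genes most like GPC3. Further genes were named after their values were seen. Over 6397 genes the deviations of same-numbered libraries from their group means correlated at 0.333, 0.242 and 0.665. Differently numbered pairs among replicates 1 and 2 correlated alike (0.419 for control 2 with PELP1-KD 1 and 0.241 for control 1 with PELP1-KD 2), so that only replicate 3 stood apart by number. The replicate number was tried as a block. Other alternatives were DESeq2 1.42.0, DESeq2 size factors and upper-quartile normalization in edgeR, no filter, at least 10 reads in every library, unrounded counts, TPM, and each library left out.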

Additional observations from a re-analysis of the deposited data

How the results depend on the processing

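The 10 glypican and syndecan genes kept their direction and their call under every alternative run. With the replicate number as a block, all 10 were called, the log2FC of GPC3 was −0.24 (adjusted p = 6.71e-13) and that of SDC4 was 0.86 (adjusted p = 3.73e-26). With each library left out in turn, GPC3 stayed between −0.25 and −0.23, SDC4 between 0.84 and 0.89, GPC5 between −2.85 and −2.27 and GPC1 between −1.11 and −0.89. The number of these genes that fell at least 2-fold was between 1 and 2. The number of called heparan sulfate pathway genes was 53 with the block, 41 with DESeq2 and between 42 and 50 with a library left out, while the number of all genes called moved with it, from 7788 to 8828 with the block, 6893 with DESeq2 and between 6766 and 7938 with a library left out. With a library left out, the log2FC of HPSE ranged from −0.0467 to 0.0798, that of AGRN from −0.0534 to 0.0244 and that of PXYLP1, listed as ACPL2, from −0.0146 to 0.106, and none of these was called. TGFBR3, 1 of the 2 called higher among the other proteoglycans (adjusted p = 0.0447), was not called by DESeq2 (adjusted p = 0.117), with upper-quartile normalization (adjusted p = 0.0532), under a minimum of 10 reads per library (adjusted p = 0.0533) or in 4 of 6 tests with a library left out. TPM in place of RPKM left the order of levels within each library unchanged by construction. Depth limits GPC4 and GPC5, which had between 10 and 129 reads in a library.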

Other observations

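The genes most like GPC3 over the 6 libraries, by Pearson's r of log2 CPM, were PPP1R1A (r = 0.9998), GPR37 (0.9995), LYAR (0.9994), HSP90AB1 (0.9994) and ESRP1 (0.9994). PELP1-KD was lower than control in all 5, with log2FC values of −1.22, −0.97, −0.29, −0.55 and −2.03. The 6 points form 2 groups of 3, so r mostly reflects the difference between the groups, and 429 of 14536 genes had an r above 0.99. HSP90AB1, a cytosolic chaperone, had a level near that of GPC3 in reads, with 36681 normalized reads in control against 35633 for GPC3.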
